A study of Mus musculus with 1753 samples.

Results

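Cluster 2 is the larger of the 2 perimysial fibroblast clusters of mouse hindlimb skeletal muscle, and it was taken here as every cell whose label gave the cluster number 2. That rule found 269 of the 1753 single cells of the study and 269 of its 1566 fibroblasts. The other 1297 fibroblasts lay in 8 clusters, of which cluster 9 (59 cells) is also perimysial, cluster 4 (60 cells) is called paramysial, 5 clusters are endomysial and cluster 10 has no class name. The remaining 187 cells were mural cells, the contractile cells and pericytes of vessel walls. Hindlimb muscles of male mice aged 10 to 20 weeks had been dissociated, cells were sorted as PDGFRα- or PDGFRβ-positive or reporter-positive, CD31-negative singlets, and each cell had been sequenced on its own with Smart-seq2, which reads full-length cDNA and carries no molecular identifiers. Cells came under 5 strain labels. C57BL6 is an inbred strain without a reporter, sorted by antibody, and gave 140 of the cluster 2 cells. PdgfrbGFP, Acta2GFP and Cspg4dsRED carry a fluorescent protein under control of the named gene and gave 74, 12 and 16 cluster 2 cells. The label PdgfraGFP - PdgfrbGFP pool, below called the pool, covers cells of a Pdgfra-H2BGFP and a PdgfrbGFP line and gave 27. The driver of each reporter limited which cells could be sorted, so the strain labels differ in both genotype and gate. For Acta2GFP mice the study also added elastase to the dissociation, so that label differs in digestion as well.

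The labels name no animal, so counts were summed over the cells of a class within each strain label and the strain label was the unit (n = 5 unless stated). P-values then measure the spread between these labels only, and PdgfrbGFP and the pool may share a line or a mouse. Summed cluster 2 counts ran from 1788937 in Cspg4dsRED to 39483034 in C57BL6. Cluster 2 cells held a median of 256378 counts (46097 to 702018) and of 3850 genes, against 278313 counts and 4620 genes in the other fibroblasts. The 16 cluster 2 cells of Cspg4dsRED were the shallowest, with a median of 86982 counts and 2170 genes, and values of that label carry the largest counting error. The authors had formed the clusters from these same counts, so the differences between clusters below describe that separation and how constant it was over strain labels, and are not independent evidence that the cells differ. The muscle of origin and the spike-in ratio did not enter the cluster rule.

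The perimysium is the collagenous sheath around bundles of muscle fibres. It runs without a break into the tendon and passes on the force of the fibres, while the endomysium around single fibres borders on their basement membrane. Tendon and sheath fibroblasts build fibrils of type I collagen whose growth is set by small leucine-rich proteoglycans, and they are marked by the transcription factors Scleraxis and Mohawk and by tenomodulin, a membrane protein of tendon cells. Wif1 is a secreted protein that binds Wnt ligands and keeps them from their receptors.

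The promoters of 4 markers are shown because the markers fell into pairs in the data. Wif1 and Kera were nearly absent from the soleus cells of PdgfrbGFP in cluster 2, whereas Chad and Tnmd were kept there. Each line gives the 250 bases before the transcription start on the sense strand, from RefSeq on GRCm38.p6. Wif1 lies at chr10:121033754-121034003, Kera at chr10:97606955-97607204, Chad at chr11:94564797-94565046 and Tnmd at chrX:133850758-133851007, all on the plus strand. GENCODE M21 places some starts further upstream than RefSeq. By its positions the whole Kera window and the ends of the Wif1 and Tnmd windows lie inside the gene. Capitals mark every E-box (CANNTG, the core that basic helix-loop-helix factors such as Scleraxis bind) and every TATAAA, on either strand.
Wif1: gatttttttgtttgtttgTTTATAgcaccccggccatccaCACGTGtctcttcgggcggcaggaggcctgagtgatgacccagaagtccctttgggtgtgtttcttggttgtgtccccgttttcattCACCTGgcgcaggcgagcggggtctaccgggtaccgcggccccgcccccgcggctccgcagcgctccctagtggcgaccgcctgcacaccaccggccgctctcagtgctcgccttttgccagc
Kera: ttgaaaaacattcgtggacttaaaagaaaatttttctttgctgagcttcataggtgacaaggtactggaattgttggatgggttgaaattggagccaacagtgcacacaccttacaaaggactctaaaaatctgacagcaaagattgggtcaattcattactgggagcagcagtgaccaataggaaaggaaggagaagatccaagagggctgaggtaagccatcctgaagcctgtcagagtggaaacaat
Chad: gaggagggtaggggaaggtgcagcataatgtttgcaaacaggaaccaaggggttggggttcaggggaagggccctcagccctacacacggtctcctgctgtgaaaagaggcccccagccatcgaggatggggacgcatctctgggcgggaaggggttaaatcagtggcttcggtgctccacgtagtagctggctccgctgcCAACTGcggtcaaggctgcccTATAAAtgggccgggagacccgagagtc
Tnmd: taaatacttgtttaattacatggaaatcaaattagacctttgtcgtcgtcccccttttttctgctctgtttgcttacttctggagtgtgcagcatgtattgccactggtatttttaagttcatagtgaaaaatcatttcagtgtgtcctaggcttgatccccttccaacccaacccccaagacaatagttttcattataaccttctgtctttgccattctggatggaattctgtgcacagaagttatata
The Wif1 window held E-boxes at 210 and 123 bases before the start and a TATAAA on the other strand at 232. The Chad window held an E-box at 49 and a TATAAA at 28 bases before the start. The Kera and Tnmd windows held neither motif. An E-box lay in 5 of the 7 marker windows, against 66.2% of 32851 RefSeq windows of the same length, and a TATAAA in 2 of 7, against 12.4%. These matches are descriptions of letters and not of bound sites.

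The 7 markers, with their positions on GRCm38 from GENCODE M21, were Wif1 (ENSMUSG00000020218, chr10:121033960-121100650), Kera (ENSMUSG00000019932, chr10:97606879-97613692), Cilp2 (ENSMUSG00000044006, chr8:69880369-69887687), Egfl6 (ENSMUSG00000000402, chrX:166523007-166585720), Chad (ENSMUSG00000039084, chr11:94565047-94569127), Fmod (ENSMUSG00000041559, chr1:134037254-134048277) and Tnmd (ENSMUSG00000031250, chrX:133850980-133865577). All were higher in cluster 2 than in the other fibroblasts under every strain label. Levels are given as log2 CPM, the log2 of a gene's count scaled to library size, in the order Acta2GFP, C57BL6, Cspg4dsRED, pool and PdgfrbGFP. In a sum over cells, fewer expressing cells and less RNA per cell cannot be told apart. Wif1 stood at 8.23, 8.94, 11.22, 9.03 and 10.39 in cluster 2 and at 0.40, 0.90, 1.5, -0.14 and 0.77 in the other fibroblasts. These ranges lay far apart, and the log2 fold change was 8.92 ± 0.42 (SE, edgeR adjusted p = 7.4e-05). Kera, which encodes the keratan sulphate proteoglycan keratocan, stood at 10.42, 10.59, 10.91, 10.37 and 11 against 4.45, 5.07, 0.04, 3.04 and 2.99. Its cluster 2 levels were close together while those of the other fibroblasts spread widely, with a log2 fold change of 7.34 ± 0.81 (adjusted p = 0.0018). Cilp2, a matrix protein of the cartilage intermediate layer protein family, stood at 10.77, 10.34, 11.65, 11.50 and 10.84 against 6.94, 5.59, 4.27, 5.85 and 3.71. The groups did not overlap, and the log2 fold change was 5.75 ± 0.60 (adjusted p = 0.0014).

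Chad encodes chondroadherin, a leucine-rich repeat protein of cartilage matrix, and stood at 12.55, 11.77, 13.85, 11.93 and 12.62 against 9.83, 7.05, 6.81, 6.35 and 6.82. The highest value of the other fibroblasts was that of Acta2GFP, the label with the largest share of cluster 9 cells. Fmod encodes fibromodulin, which binds collagen fibrils, and stood at 14.15, 13.16, 14.93, 13.22 and 13.99 against 10.78, 8.93, 9.41, 8.12 and 8.78. Tnmd, tenomodulin, stood at 11.72, 11.15, 11.92, 11.04 and 11.32 against 9.13, 7.10, 7.21, 6.61 and 6.01. None of these 3 genes overlapped between the groups, and their log2 fold changes were 5.23 ± 0.61 for Chad, 4.70 ± 0.33 for Fmod and 4.24 ± 0.38 for Tnmd (adjusted p = 0.0023, 0.00039 and 0.00075). Egfl6, a secreted protein with EGF-like domains, was the least constant marker. It stood at 6.22, 7.44, 4.81, 7.58 and 8.15 against -2.69, 0.19, 4.72, -0.92 and -0.86, so that both groups were nearly level in Cspg4dsRED. Its log2 fold change was 7.69 ± 1.6 (adjusted p = 0.03), and the call was lost without Acta2GFP, C57BL6, the pool or PdgfrbGFP (adjusted p from 0.11 to 0.14).

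**Figure D1:**
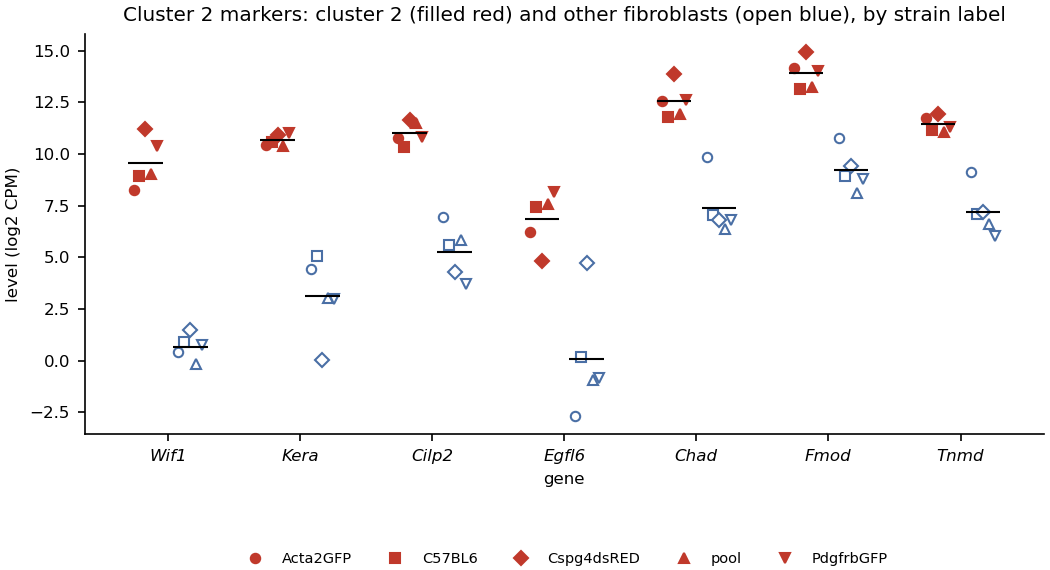
Level (log2 CPM) of the 7 cluster 2 markers by strain label. Filled red symbols are cluster 2 cells, open blue symbols are the other fibroblasts of the same label, the symbol shape gives the label and the bars are means over 5 labels. The groups lie apart for every marker except Egfl6, where Cspg4dsRED stands at 4.81 and 4.72.

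Transcripts of cluster 2 were ranked per kilobase of exon among protein-coding genes outside the mitochondrial genome. Fmod was the most abundant of these, with 12.07 ± 0.56 log2 CPM per kb (SD). Chad followed with 11.70 ± 0.65 and Thbs4, a thrombospondin of tendon and muscle matrix, with 11.46 ± 0.43. The next ranks were held by Serpinf1 (11.20), Igfbp6 (11.05), Angptl7 (11.02), Gsn (10.99), Gpx3 (10.97) and Sparc (10.93), and Tnmd was in rank 10 with 10.90 ± 0.22. These neighbours differed by less than 1 SD. Kera held rank 40 (9.37), Cilp2 rank 67 (8.82), Wif1 rank 118 (8.19) and Egfl6 rank 1194 (5.32).

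Single cells of the cluster differed in how many of the markers they carried. A marker was counted as detected at 100 or more counts per 500000. The study states 100 counts per cell for detection and scales cells to 500000 counts for bar plots, and these were joined here. Fmod was detected in 269 of 269 cells, Tnmd in 267, Cilp2 in 241, Chad in 232 and Kera in 171, but Wif1 in only 118 and Egfl6 in 60. All 7 markers were detected together in 35 cells, 6 in 70, 5 in 70, 4 in 66, 3 in 23 and 2 in 5 cells. At least 4 markers were found in 89.59% of the cluster 2 cells, in 64.41% of the cluster 9 cells and in 3.007% of the other fibroblasts, where 38 of the 39 such cells were those of cluster 9. More than 5 were found in 105 cluster 2 cells and in 0 of the 1297 other fibroblasts, which allows a share of up to 0.231%. Wif1 itself reached the level in 0 of 1297 other fibroblasts, with the same limit, although 391 of them held at least 1 count. Intervals and limits here cover counting error only, since reads without molecular identifiers are not independent molecules.

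**Figure D2:**
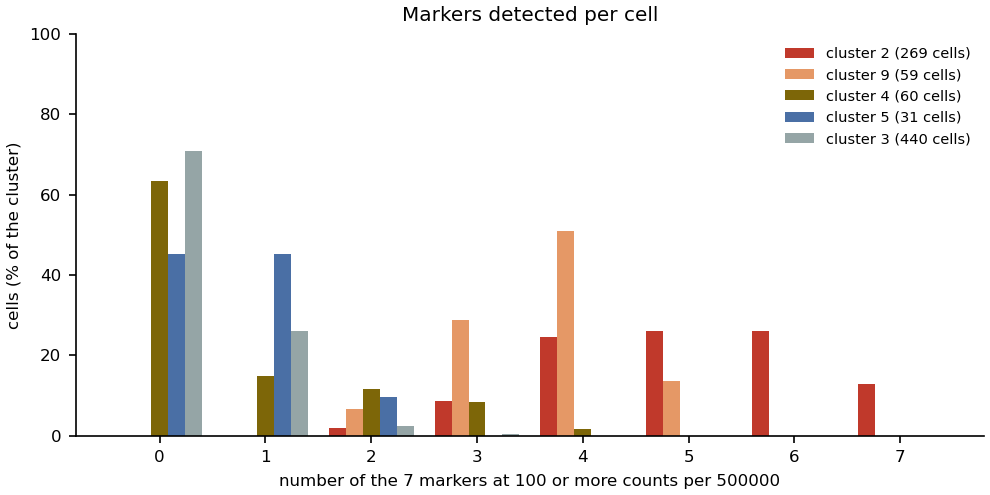
Number of the 7 markers at 100 or more counts per 500000 in each cell (horizontal axis) against the percent of the cells of a cluster (vertical axis), for clusters 2, 9, 4, 5 and 3. Cluster 2 peaks at 5 and 6 markers, with 70 cells each, cluster 9 at 4, and most cells of the other clusters hold 0 or 1.

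Over all genes, 254 of 14339 tested were called higher in cluster 2 than in the other fibroblasts (1.77%) and 481 were called lower (3.35%) at an edgeR adjusted p under 0.05. Of these 735 genes, 726 differed the same way under every strain label. The called higher genes had a median log2 fold change of 2.21 and the called lower genes of -5.38, while the median over all tested genes was -0.38. The count of called genes was 274 without C57BL6, 293 without PdgfrbGFP, 390 without the pool, 532 without Acta2GFP and 997 without Cspg4dsRED, and 234 of the 735 genes were called in every such fit. Beside the markers, the genes with the largest positive differences encoded lipid enzymes, a receptor and matrix-related proteins. Pla2g12b, a phospholipase A2 family member, had a log2 fold change of 9.08 ± 1.16 and Pla2g5, a secreted phospholipase A2, of 8.04 ± 0.87. Uts2r, the receptor for the vasoactive peptide urotensin 2, stood at 8.90, 7.17, 9.59, 8.23 and 8.05 log2 CPM against 2.14, -1.54, -0.58, 1.58 and -2.02. Its groups lay more than 5 log2 units apart (8.48 ± 0.79, adjusted p = 0.00085). Chst5, a carbohydrate sulphotransferase, had a log2 fold change of 8.16 ± 1.01, Crtac1, cartilage acidic protein 1, of 6.75 ± 0.88 and Phyhip of 6.36 ± 1.32. The call of Phyhip was lost without C57BL6, the pool or PdgfrbGFP (adjusted p from 0.083 to 0.12).

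**Figure D3:**
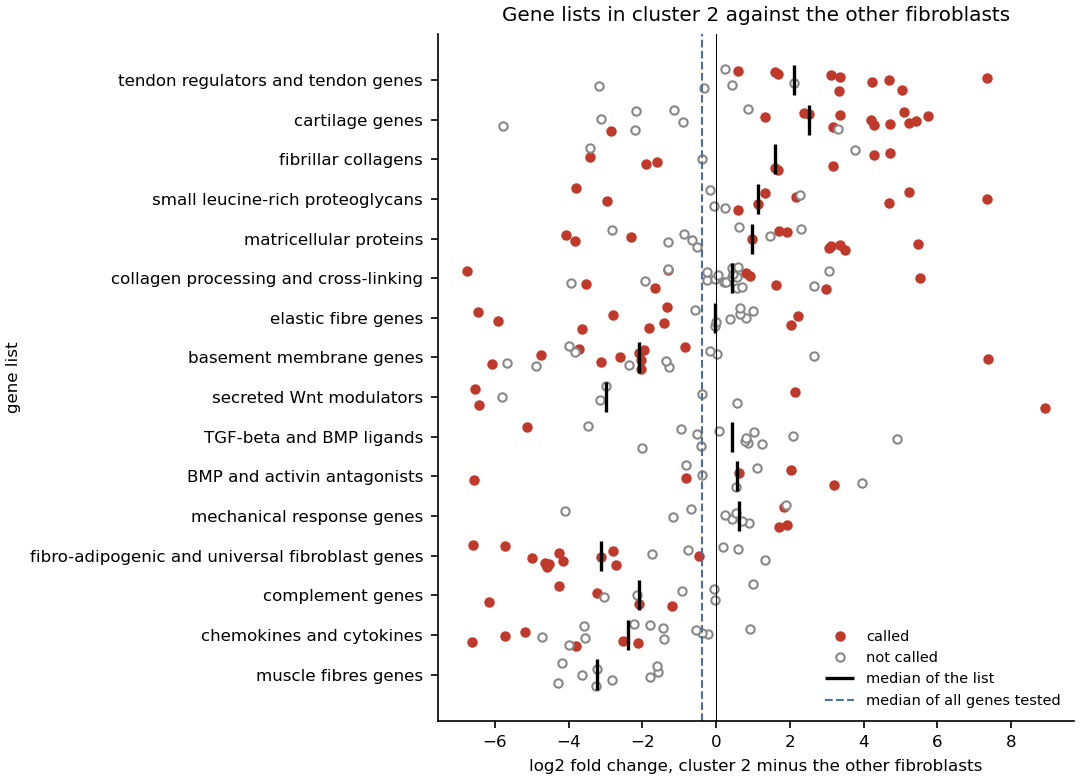
Log2 fold change of cluster 2 against the other fibroblasts (horizontal axis) for each tested member of 16 gene lists (rows). Filled red points passed an adjusted p of 0.05, open grey points did not, black bars are list medians and the dashed line is the median of all tested genes (-0.38). Tendon and cartilage genes lie to the right, with medians of 2.11 and 2.51, and fibro-adipogenic and chemokine genes to the left, with medians of -3.12 and -2.38. The tendon, cartilage, proteoglycan and Wnt modulator lists include markers of the cluster.

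The counts of called members in the lists below stand beside 1.77% of all tested genes called higher and 3.35% called lower. Tendon genes were often higher and never called lower. Of 15 tendon genes, all tested, 10 were called higher and 0 lower, with a median log2 fold change of 2.11 against -0.38 over all genes. The cluster's own markers Tnmd, Fmod and Kera were among the 10, so the list is not separate from the markers. Mkx, which encodes Mohawk, stood at 9.10, 8.68, 9.09, 8.88 and 8.77 log2 CPM in cluster 2 and at 6.68, 3.90, 1.63, 3.51 and 3.62 elsewhere. Its cluster 2 levels varied by less than 0.5 between labels, and the log2 fold change was 5.04 ± 0.69 (adjusted p = 0.0051). Scx, Scleraxis, was 3.34 ± 0.53 higher (adjusted p = 0.0091), and it was detected in 69 of the 269 cells against 147 cells for Mkx. Thbs4 was 3.12 ± 0.23 higher and Comp, which encodes the cartilage oligomeric matrix protein of tendon and cartilage, 3.36 ± 0.21 higher (adjusted p = 0.00042 and 0.00032). Bgn, biglycan, was called in neither direction, at 11.85 against 11.60 log2 CPM (adjusted p = 0.28). All 9 genes that the study itself names as perimysial were called higher, with a median of 3.50, but that list had been chosen on these cells and is not independent evidence. Among them, Tnc, the matricellular protein tenascin C, stood at 10.06, 10.21, 10.34, 10.11 and 10.52 against 4.95, 4.67, 5.30, 6.11 and 2.45. It was one of the most even genes of the cluster (log2 fold change 5.47 ± 0.58, adjusted p = 0.0015). Thbs1, thrombospondin 1, was 3.50 ± 0.55 higher (adjusted p = 0.0085), a call lost without Acta2GFP (adjusted p = 0.055).

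Genes of cartilage were also often higher, without their main regulator. Of 29 listed, 21 were tested, 12 were called higher and 1 lower, with a median of 2.51. The markers Chad and Cilp2 were among the 12. Matn3, a matrilin of cartilage matrix, stood at 8.82, 6.46, 8.20 and 6.83 log2 CPM in Acta2GFP, C57BL6, the pool and PdgfrbGFP, against 4.00, 1.10, 3.42 and 0.05, and had no counts in either group of Cspg4dsRED. Col2a1, the chain of type II collagen, was 3.18 ± 0.71 higher (adjusted p = 0.041), a call lost without C57BL6, Cspg4dsRED, the pool or PdgfrbGFP (adjusted p from 0.056 to 0.17). Ucma, a secreted protein of cartilage, was 5.10 ± 0.70 higher and lost its call without Acta2GFP or PdgfrbGFP (adjusted p = 0.055 and 0.067). Sox9, the regulator of cartilage genes, was the member called lower. It stood at 1.88, 2.39, 4.73, 4.77 and 3.75 against 5.29, 5.66, 8.43, 6.84 and 5.59, lower under each label (log2 fold change -2.84 ± 0.44, adjusted p = 0.0083, and 0.053 without C57BL6).

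Fibrillar collagens split by type. Of 11 tested, Col1a1, Col1a2, Col2a1, Col11a1 and Col11a2 were called higher, Col3a1, Col5a1 and Col5a3 lower, and the median was 1.59. Col1a1 stood at 13.46, 13.01, 14.15, 13.61 and 13.86 log2 CPM against 11.84, 11.76, 12.14, 12.09 and 11.89 (log2 fold change 1.68 ± 0.12, adjusted p = 0.00039). Col3a1, of the thinner type III fibrils, stood at 9.78, 9.08, 9.98, 10.58 and 10.10 against 11.36, 11.56, 11.98, 12.24 and 11.85 (-1.89 ± 0.15, adjusted p = 0.00044). Type I was thus higher and type III lower under every label, and neither gene overlapped between the groups. Col11a2 and Col11a1, chains of type XI collagen, were 4.73 ± 0.54 and 4.29 ± 0.64 higher (adjusted p = 0.0022 and 0.0075). Col5a3 was 3.43 log2 units lower (adjusted p = 0.015), a call lost without C57BL6, the pool or PdgfrbGFP (adjusted p from 0.055 to 0.069). The fibril-associated collagens were split as well. Of 6 tested, Col12a1 was called higher (3.10 ± 0.41, adjusted p = 0.0042) and Col14a1 lower (-4.89 ± 0.49, adjusted p = 0.0013). In the chains of collagens VI and VIII, 1 of 6 was called higher, Col8a2 (3.19 ± 0.39), and 3 were called lower, among them Col6a6 (-5.78 ± 0.67).

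Small leucine-rich proteoglycans made up 3.349% to 6.16% of all counts in cluster 2 and 1.419% to 2.082% in the other fibroblasts, without overlap between the strain labels. Of 13 tested, 7 were called higher and 2 lower, with a median of 1.14. The markers Fmod, Kera and Chad were among the 7, and their counts are part of the share above. Prelp, a proteoglycan that anchors collagen to basement membrane, was 2.17 ± 0.09 higher, the smallest adjusted p of these genes (4.2e-05). Dcn, decorin, was only 0.59 ± 0.09 higher (adjusted p = 0.0087). Lum, lumican, stood at 7.88, 7.81, 8.06, 8.27 and 7.29 log2 CPM against 10.73, 10.40, 11.51, 10.48 and 11.01. It was lower under every label (-2.96 ± 0.24, adjusted p = 0.0005), opposite to Kera and Fmod of the same family. Podn, podocan, was also lower (-3.8 ± 0.36). Among 27 genes of collagen processing, 5 were called higher and 4 lower with a median of 0.44. Lox, the lysyl oxidase that starts cross-linking, was 2.99 ± 0.33 higher and P3h2, a prolyl hydroxylase, 5.54 ± 0.44 higher. In P3h2, 28.4% of the exonic length overlaps the antisense gene Gm4524, and reads of the pair cannot be told apart without strand. P4ha2, another prolyl hydroxylase, was lower (-3.53 ± 0.78, adjusted p = 0.038), a call lost without C57BL6, the pool or PdgfrbGFP (adjusted p from 0.11 to 0.14). Adamts14, which trims procollagen ends, was 6.77 log2 units lower (adjusted p = 0.0077, and 0.052 to 0.059 without C57BL6 or PdgfrbGFP).

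Matricellular proteins were more often higher, elastic fibre and basement membrane genes more often lower. Matricellular proteins had 8 of 19 tested members higher and 3 lower, with a median of 0.97, and took 2.445% to 4.652% of counts against 1.185% to 2.33%. The lower members included Smoc2, a calcium-binding matrix protein, with 7.76, 7.57, 6.96, 7.6 and 7.07 log2 CPM against 11.20, 10.84, 12.64, 11.09 and 11.65 (-4.07 ± 0.38). Its groups did not overlap. Postn, periostin, was 3.84 log2 units lower (adjusted p = 0.0056), and without clusters 4 and 9 among the other fibroblasts the difference was -1.75 and no longer called. Of 17 elastic fibre genes, 2 were called higher and 7 lower, with a median of -0.02. Emilin2, Efemp1 and Mfap5, which encode glycoproteins of elastic fibres and microfibrils, were 6.46 ± 0.42, 5.91 ± 0.56 and 2.80 ± 0.20 log2 units lower. Eln, elastin, was 3.64 log2 units lower (adjusted p = 0.0087, and 0.053 to 0.058 without C57BL6 or the pool). Basement membrane genes took 0.1614% to 0.3019% of counts against 0.3792% to 0.9275%, without overlap. Of 21 tested, 10 were called lower and 1 higher, with a median of -2.10. Lamb1, a laminin chain, was 4.76 ± 0.55 log2 units lower and Nid2, nidogen 2, 3.73 ± 0.39 lower. Col4a5 was 6.07 log2 units lower (adjusted p = 0.0075, and 0.058 to 0.067 without C57BL6 or PdgfrbGFP). Lama3, a laminin chain of epithelial basement membranes, was the exception, 7.38 ± 1.20 higher (adjusted p = 0.014), from 4 of 5 labels. It was tested in 4 of the 5 fits that left out a label, and lost its call without Acta2GFP, C57BL6 or the pool (adjusted p from 0.071 to 0.082).

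In the Wnt pathway, secreted inhibitors compete with receptors for the ligands, and cluster 2 was higher in some of them and lower in others. Of 19 Wnt ligands only 4 passed the filter on low counts, and 1 was called. Wnt5a, a ligand of the non-canonical branch, was lower (-3.33 ± 0.78, adjusted p = 0.049), a call lost without Acta2GFP, C57BL6, the pool or PdgfrbGFP (adjusted p from 0.11 to 0.23). Among 16 tested receptors, Fzd1 was called higher. It stood at 8.34, 8.06, 7.37, 8.26 and 8.44 log2 CPM against 6.09, 5.97, 2.99, 5.93 and 5.57 and did not overlap (2.75 ± 0.37, adjusted p = 0.005). Of 9 tested secreted modulators, Wif1 and Dkk3 were called higher and Sfrp1 and Rspo3 lower, with a median of -2.98. Dkk3, a Dickkopf family member, was 2.14 ± 0.35 higher (adjusted p = 0.011, and 0.052 to 0.059 without Acta2GFP, C57BL6 or the pool). Sfrp1, a soluble Frizzled-like inhibitor, was 6.44 ± 0.73 log2 units lower (adjusted p = 0.0021, and 0.054 without C57BL6). Rspo3, which strengthens Wnt signals, was 6.54 ± 1.22 lower. It was tested in only 3 of the 5 fits that left out a label, and lost its call without the pool or PdgfrbGFP (adjusted p = 0.082 and 0.1). Of 5 tested targets that feed back on the pathway, Axin2 was called. It stood at 5.61, 3.84, 5.69, 6.04 and 4.95 against 0.12, 1.70, -0.24, 2.64 and 1.71, apart under every label (4.02 ± 0.85, adjusted p = 0.032). It was detected in only 14 cluster 2 cells, and the call was lost without Acta2GFP, C57BL6, the pool or PdgfrbGFP (adjusted p from 0.062 to 0.12).

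Outside the Wnt pathway, few growth factor ligands and receptors were called, but more of the antagonists. Of 14 tested TGF-beta and BMP ligands, Gdf10 was the only one called, 5.14 log2 units lower (adjusted p = 0.009, and 0.051 to 0.056 without Acta2GFP or C57BL6). Of 12 receptors, the co-receptor gene Tgfbr3 was called, 1.33 ± 0.22 higher (adjusted p = 0.012, and 0.053 without C57BL6). The antagonists went both ways, with 3 of 10 higher and 2 lower. Fst, follistatin, stood at -0.84, 1.69, -4.68, 0.77 and 1.41 log2 CPM against 5.25, 8.41, 7.46, 6.71 and 7.37, where -4.68 stands for no counts. It was lower by 6.56 ± 0.59 log2 units under every label (adjusted p = 0.00075). Chrdl1, a chordin-like BMP inhibitor, was 3.21 ± 0.64 higher (adjusted p = 0.026), a call lost without Acta2GFP, the pool or PdgfrbGFP (adjusted p from 0.063 to 0.1). Bambi, a decoy receptor, was 2.02 ± 0.41 higher (adjusted p = 0.028), a call lost without Acta2GFP, C57BL6, the pool or PdgfrbGFP (adjusted p from 0.057 to 0.14).

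The PDGF genes separated ligand and receptor. Pdgfra, the receptor used in part of the sorts, stood at 3.76, 5.28, 1.54, 5.79 and 5.02 log2 CPM against 8.68, 9.74, 8.32, 8.80 and 9.53 (-4.58 ± 0.47, adjusted p = 0.0014). It was detected in 11 of 269 cluster 2 cells and in 960 of 1297 other fibroblasts. Pdgfrb, the second receptor, was at 8.53 against 8.25 and was not called (adjusted p = 0.6). The ligand gene Pdgfa stood at 7.98, 7.90, 7.96, 8.23 and 7.18 against 5.67, 4.00, 2.89, 4.24 and 3.47, higher under every label (3.8 ± 0.42, adjusted p = 0.0018). An antisense gene overlaps 26.1% of the exonic length of Pdgfa. The other perimysial cluster, cluster 9, stood close to cluster 2 in both genes. Mean levels were 4.07 against 4.32 log2 CPM for Pdgfra and 7.66 against 7.88 for Pdgfa. Mural cells stood at 7.79 for Pdgfa. Of 12 tested genes of the mechanical response, 3 were called higher and 0 lower, with a median of 0.61. Ccn1 and Ccn2, matricellular targets of YAP, were 1.92 ± 0.21 and 1.70 ± 0.26 higher, and Piezo1, a stretch-gated channel, 1.85 ± 0.42 higher (adjusted p = 0.042). The call of Piezo1 was lost without Acta2GFP, C57BL6, the pool or PdgfrbGFP (adjusted p from 0.055 to 0.2), and antisense genes overlap 24.6% of Piezo1 and 23.2% of Ccn2. Of 24 matrix receptors, Itga3 was called higher (5.46 ± 1.27) and Itgb3 and Sdc2 lower. Itga3 lost its call without Acta2GFP, C57BL6, Cspg4dsRED or the pool (adjusted p from 0.084 to 0.17) and Itgb3, 5.47 log2 units lower, without C57BL6, the pool or PdgfrbGFP (adjusted p from 0.084 to 0.11).

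Genes of the general fibroblast profile of muscle were often lower. Of 17 genes of fibro-adipogenic progenitors and of fibroblasts shared between organs, 12 were called lower and 0 higher, with a median of -3.12. They took 0.625% to 1.237% of counts against 1.558% to 2.508%, without overlap. Osr1 and Osr2, transcription factors of muscle connective tissue, were 5.72 ± 0.48 and 6.6 ± 0.56 log2 units lower. Ly6c1, Dpt and Pi16, surface and matrix genes of such progenitors, were 4.63 ± 0.34, 4.99 ± 0.53 and 4.15 ± 0.45 lower. Pi16 stood at 6.10, 4.37, 7.47, 4.78 and 4.95 log2 CPM against 10.12, 8.62, 9.65, 9.63 and 10.17, and its groups did not overlap. Among genes at 5 log2 CPM or more in the other fibroblasts, Rtn1, reticulon 1, was 7.15 ± 0.78 log2 units lower, P2ry2, a nucleotide receptor, 7.15 ± 0.93 and Nova1, a splicing factor of neurons, 6.99 ± 0.63. Cadm3, an adhesion molecule, P2ry1, a further nucleotide receptor, and Adcyap1r1, the PACAP receptor, were 6.97, 6.84 and 6.64 lower. Vldlr, a lipoprotein receptor, and Sult5a1, a sulphotransferase, were 6.6 and 6.56 lower, and Cyp1b1, a cytochrome P450, was 6.59 lower (adjusted p = 0.0059, and 0.053 without C57BL6). An antisense gene overlaps 23.1% of the exonic length of P2ry1.

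Immune signalling genes were level or lower in cluster 2. Of 11 tested complement genes, 5 were called lower and 0 higher, with a median of -2.08. C2 was 6.17 ± 0.43 log2 units lower, and 42.8% of its exonic length overlaps a readthrough gene on the same strand. Of 18 tested chemokines and cytokines, 6 were called lower and 0 higher, with a median of -2.38. Ccl11, the eosinophil chemokine eotaxin, stood at 4.27, 3.67, 1.86, 4.39 and 3.73 log2 CPM against 8.92, 9.54, 9.76, 9.55 and 9.43 (-5.72 ± 0.44, adjusted p = 0.00044). It was lower under every label and even in the other fibroblasts. Cxcl1, a neutrophil chemokine, was 3.81 log2 units lower (adjusted p = 0.026, and 0.067 to 0.11 without Acta2GFP, C57BL6, the pool or PdgfrbGFP). Cxcl13, a B cell chemokine, was 6.63 lower (adjusted p = 0.018). It was tested in only 3 of the 5 fits that left out a label, and lost its call without the pool (adjusted p = 0.093). Il6 was 5.19 lower (adjusted p = 0.049), a call lost without any one of the 5 labels (adjusted p from 0.055 to 0.14). Against cluster 9 alone the direction differed. There, 2 of 11 tested complement genes, C3 and Serping1, were called higher in cluster 2 and 0 lower, with a median of 2.29. Of 14 tested chemokines and cytokines, Il33 was called higher and 0 lower, with a median of 0.27. Over all genes, 0.557% were called higher against cluster 9.

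The remaining lists held some calls, beside 1.77% of all genes called higher and 3.35% called lower. Of 23 tested matrix proteases and inhibitors, 2 were called higher and 3 lower, with a median of -0.81. Adamts5, an aggrecanase, was 2.97 ± 0.37 log2 units lower. Timp2, an inhibitor of such enzymes, was 1.08 ± 0.21 higher (adjusted p = 0.022, and 0.054 to 0.078 without Acta2GFP, the pool or PdgfrbGFP), and Mmp19 was 3.17 lower (adjusted p = 0.0073, and 0.055 without PdgfrbGFP). Of 10 tested genes of the IGF system, Igfbp6 was called, 0.64 ± 0.10 higher (adjusted p = 0.0079). Immediate early genes, which respond to dissociation among other stimuli, took 0.8063% to 1.381% of counts in cluster 2 and 0.7726% to 3.256% in the other fibroblasts, and these ranges overlapped. Of 17 tested, Ier3 was called higher (1.16 ± 0.18) and Fosl2 and Nr4a1 lower by 2.27 and 2.12. Fosl2 lost its call without Acta2GFP, C57BL6, the pool or PdgfrbGFP (adjusted p from 0.089 to 0.22) and Nr4a1 without Acta2GFP, C57BL6 or PdgfrbGFP (adjusted p from 0.086 to 0.19).

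Markers of other cell types that the sort could hold were summed per list and strain label. In most lists both ends of the range over labels were lower than in the other fibroblasts, but not for immune and mural cells. The summed level of 9 endothelial markers ranged from 9.65 to 22.1 CPM over strain labels in cluster 2 and from 37.78 to 207.2 in the other fibroblasts. Most of the latter was Tek, an angiopoietin receptor, at 150.5 CPM over all other fibroblasts against 1.342 in cluster 2, while the other 8 markers stood at 0.1154 to 2.957 CPM in cluster 2 and at 0.9434 to 6.639 elsewhere. The 9 immune markers summed to 1.118 to 46.23 CPM against 8.659 to 38.06, with Adgre1, Cd52 and Cd3e at 0 in cluster 2. Over all cells, Lyz2, Csf1r and Cd68 stood higher in cluster 2, at 9.651, 13.75 and 2.438 CPM against 3.768, 12.1 and 1.384. Ptprc, C1qa and Itgam stood lower. The 13 muscle fibre markers summed to 2.236 to 225.4 CPM against 149.9 to 301.3. The 6 satellite cell markers summed to 0 to 55.4 CPM against 41.11 to 69.63, with Myod1 at 0. The 7 Schwann cell markers summed to 13.39 to 45.28 CPM against 36.15 to 190.6, with Sox10 at 0, and the 4 perineurial markers to 0 to 65.12 CPM against 57.38 to 337.4. Over all cells, Myh4, Chrna1 and Mbp stood higher in cluster 2, at 9.593, 1.125 and 22.22 CPM against 4.823, 0.3899 and 7.934. The other members of the muscle fibre, satellite cell and Schwann cell lists stood lower. The 9 mural markers summed to 310.4 to 1190 CPM against 208.2 to 892.4, and 17 cluster 2 cells held 2 or more of them at the detection level. Most of this was Acta2, at 340 CPM over all cluster 2 cells against 85.52, while Notch3, Kcnj8 and Des stood at 0.4472, 0.6924 and 5.929 against 15.67, 12.19 and 76.02 CPM. Rgs5 stood at 2.193 against 2.729, Mcam at 0.4328 against 2.704, Myh11 at 5.034 against 6.42, Cspg4 at 45.96 against 75.26 and Tagln at 27.11 against 21.34 CPM. The mural gene called higher was Acta2, smooth muscle actin, with 9.79, 7.75, 10.18, 8.35 and 8.98 log2 CPM against 8.83, 4.49, 8.36, 5.25 and 6.20 (2.40 ± 0.36, adjusted p = 0.0075). Its levels overlapped between the groups over all labels, but it was higher in cluster 2 under each. Tek, Cldn1 and Cdh19, of the endothelial, perineurial and Schwann cell lists, were called lower by 6.08 ± 0.63, 7.66 ± 1.11 and 6.10 ± 0.92, the last with a call lost without C57BL6 or PdgfrbGFP (adjusted p = 0.051 and 0.058). Whether mural cells had a part in the values of Acta2 was not tested.

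Over 40 sums of cluster and strain label, mural cells included, the genes most like Wif1 by rank correlation were members of the clustered protocadherins. Pcdhga9 had a Spearman correlation of 0.698 and Pcdhgb2 of 0.697. These sums share libraries and depth, so the values are descriptions. All 22 Pcdhg genes in the table were called higher in cluster 2, by 0.82 to 0.91 log2 units, and made up 8.66% of the called higher genes. Their counts correlated with a median Pearson r of 0.992 over 1753 cells, and their transcripts share constant exons, so they cannot be taken as separate genes here. Outside this family, Kera (0.673), Serpinf1 (0.661), Chad (0.648), Stx5a (0.648) and S100a5 (0.620) followed most closely.

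Against cluster 9, the other perimysial cluster, Wif1 and Egfl6 were the markers that kept their calls without any 1 label. With 4 strain labels that held 3 or more cells of each, 66 of 11843 genes were called higher in cluster 2 (0.557%) and 43 lower (0.363%), with a median log2 fold change of 0.12 over all genes. The calls were unstable, at 50 genes without Acta2GFP, 35 without C57BL6, 35 without the pool and 38 without PdgfrbGFP, and 21 genes were called in each of these fits. Besides Wif1 and Egfl6, the named genes among these were Lepr and Pcolce2, higher in cluster 2. Reln, Postn, Rflnb, Ucp2, Fn1 and Pla2g7, higher in cluster 9, were equally stable. Levels below are in the order Acta2GFP, C57BL6, pool and PdgfrbGFP. Wif1 stood at 8.29, 8.97, 9.03 and 10.43 log2 CPM in cluster 2 and at 0.43, 0.23, 3.4 and 1.22 in cluster 9. These groups lay more than 4 log2 units apart (7.84 ± 0.68, adjusted p = 0.0023). Egfl6 had 13830 counts in cluster 2 and 2 in cluster 9, a ratio of CPM of 1.98e+03 (95% counting interval 549 to 1.64e+04). Lepr, the leptin receptor, was 9.15 ± 0.81 higher (adjusted p = 0.0026) and Rflnb, refilin B, an actin regulator of cartilage cells, 2.95 ± 0.27 log2 units lower (adjusted p = 0.0028).

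Of the 7 markers, 5 were called higher than in cluster 9, with a median of 1.46. Of 15 tendon genes, 4 were called higher (Kera, Col1a1, Col1a2 and Dcn) and 0 lower, with a median of 0.46. Of 18 tested cartilage genes, only the markers Chad and Cilp2 were called higher and 0 lower, with a median of 0.47. Sox9 and Acta2 were -0.39 and -0.21 log2 units from cluster 9, neither called (adjusted p = 0.99 and 0.87). Kera stood at 10.48, 10.62, 10.38 and 11.04 log2 CPM against 6.24, 9.02, 7.71 and 7.27 (3.08 ± 0.43, adjusted p = 0.02, and 0.061 to 0.092 without Acta2GFP, the pool or PdgfrbGFP). Cilp2 was 1.46 ± 0.26 higher (adjusted p = 0.048) and Chad 0.93 ± 0.13 higher (adjusted p = 0.022), and both lost their calls without Acta2GFP, C57BL6, the pool or PdgfrbGFP (adjusted p from 0.055 to 0.2 and from 0.06 to 0.18). Fmod was 1.06 ± 0.21 higher and Tnmd 0.44 ± 0.17, which were not called (adjusted p = 0.074 and 0.44). The 9 genes the study names as perimysial had a median log2 difference of 0.44 between these clusters. Pdgfra, Pdgfa and Col3a1 were 0.89, 0.20 and 0.28 log2 units from cluster 9, none called (adjusted p = 0.91, 0.93 and 0.87). Scx was at -0.82 ± 0.22 and Mkx at 0.46 ± 0.21 log2 units from cluster 9, neither called.

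Several genes of secreted signalling proteins were higher in cluster 2 than in cluster 9. Of 5 tested Wnt modulators, Wif1, Sfrp2 and Dkk2 were called higher, with a median of 5.16. Dkk2 was 6.98 ± 1.06 higher (adjusted p = 0.027, and 0.086 to 0.19 without C57BL6, the pool or PdgfrbGFP). Igfbp5, which binds insulin-like growth factors, stood at 8.46, 9.28, 9.22 and 10.16 log2 CPM against 5.15, 3.71, 2.76 and 3.2 (5.62 ± 0.64, adjusted p = 0.0088, and 0.055 to 0.056 without C57BL6 or the pool). Pcolce2, an enhancer of procollagen processing, stood at 9.23, 8.28, 8.48 and 9.36 against 3.09, 3.95, 2.45 and 2.48 and kept its call without any 1 label (5.86 ± 0.48, adjusted p = 0.002). The BMP inhibitor gene Chrdl1 was 5.10 ± 0.62 higher, a call lost without Acta2GFP, C57BL6 or PdgfrbGFP (adjusted p from 0.054 to 0.073). Bmp3, a BMP that opposes other BMPs, was 6.49 ± 0.82 higher, a call lost without C57BL6, the pool or PdgfrbGFP (adjusted p from 0.06 to 0.084). Faim2, an inhibitor of Fas-driven cell death, had 7054 counts in cluster 2 and 0 in cluster 9, at least 674-fold higher with a floor of 3 counts over the group. Pla2g5 and Chst5 were 9.12 and 7.50 log2 units higher. Gm765, with 3832 against 2 counts, had a ratio of CPM of 549 (95% counting interval 152 to 4.54e+03), and Itga2, an integrin chain for collagen, with 3031 against 3 counts, of 290 (99 to 1.4e+03). The calls of these 4 genes were lost without Acta2GFP, C57BL6 or PdgfrbGFP (adjusted p from 0.069 to 0.2), and those of Pla2g5, Gm765 and Itga2 also without the pool, as was that of Faim2 without any of the 4 labels (adjusted p from 0.054 to 0.16).

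Of 10 tested fibrillar collagens, Col1a1 and Col1a2 were called higher in cluster 2 than in cluster 9 and 0 lower, with a median of 0.33. Col1a1, Col1a2 and Dcn were 0.89 ± 0.15, 1.02 ± 0.16 and 1.10 ± 0.17 higher, and each lost its call without any of the 4 labels (adjusted p up to 0.26, 0.18 and 0.18). Lox was 1.53 ± 0.17 higher (adjusted p = 0.0081, and 0.061 without the pool). Cluster 9 was higher in a set of matrix and signalling genes. Reln, the large secreted protein reelin, stood at 0.34, 4.32, 1.67 and 1.86 log2 CPM in cluster 2 against 8.32, 8.37, 8.84 and 8.55 (-6.40 ± 0.70, adjusted p = 0.0076). Postn stood at 6.40, 5.03, 6.74 and 3.35 against 12.11, 10.34, 10.72 and 11.17 (-5.66 ± 0.61, adjusted p = 0.0076). Neither gene overlapped between the clusters. Col22a1, a collagen of the muscle-tendon junction, was 5.98 ± 0.81 log2 units lower in cluster 2 (adjusted p = 0.019), a call lost without Acta2GFP, C57BL6 or PdgfrbGFP (adjusted p from 0.053 to 0.087). Fn1, fibronectin, Ucp2, a mitochondrial carrier, and Pla2g7, a secreted phospholipase, were 1.61 ± 0.15, 4.93 ± 0.42 and 4.29 ± 0.49 lower. Heyl, a target of Notch, was 5.64 lower, and lost its call without any of the 4 labels (adjusted p from 0.054 to 0.091). Cotl1, an actin-binding protein, was 4.91 lower (adjusted p from 0.15 to 0.2 without Acta2GFP, C57BL6 or PdgfrbGFP). Spp1, osteopontin, was 4.04 lower (adjusted p from 0.11 to 0.12 without C57BL6, the pool or PdgfrbGFP). Chodl, chondrolectin, was 1.18 log2 units lower and not called (adjusted p = 0.22).

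Muscle and cluster were not balanced in that comparison. Of the pool's cells, 8 of 9 in cluster 9 came from soleus against 8 of 27 in cluster 2. Restricted to soleus cells of the pool and PdgfrbGFP, 48 of the 62 genes called higher that still held more than 3 counts were higher in both labels, and 39 of the 43 called lower were lower in both. The median difference of these higher genes was 1.48 within soleus, against 3.48 for all called higher genes over all cells, and that of the lower genes -1.74 against -2.16. The soleus cells were part of the sums that gave the calls, so these counts are no independent check. A small constant was added to each count, and the soleus sums of cluster 2 were smaller than those of cluster 9. A gene with 0 counts in both clusters thus read as 0.72 log2 units higher in the pool and 0.80 in PdgfrbGFP, as Lepr did in PdgfrbGFP. The 48 genes and the median of 1.48 include such values. Dkk2 held 1 count against 1 in the pool and 0 against 0 in PdgfrbGFP, and Bmp3 1 against 2 and 0 against 2, so no difference could be seen there. Igfbp5 differed by 1.97 and 0.44 log2 units within soleus, and Pcolce2 by 4.89 and 0.80, the last from 8 against 8 counts. Wif1 held 486 against 55 counts in the pool and 8 against 0 in PdgfrbGFP. Egfl6 held 165 against 0 and 1 against 0, and Lepr 50 against 2 and 0 against 0. For these genes few counts were thus left to compare in PdgfrbGFP. Reln held 21 against 2290 counts in the pool and 29 against 498 in PdgfrbGFP, and Col22a1 9 against 4164 and 1 against 770, so both were lower in cluster 2 within soleus as well. Faim2, Pla2g5 and Gm765 had 0 counts in soleus cells of both clusters, so the difference lay in the remaining cells. Kera held 1642 against 1111 counts in the pool and 2 against 386 in PdgfrbGFP, opposite in direction.

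Against cluster 4, the paramysial cluster, every marker was called. Of 11622 genes, 66 were called higher in cluster 2 (0.568%) and 52 lower (0.447%), with a median log2 fold change of 0.58 over all genes and 4 strain labels. The count was 74 without the pool, which gave 46 of the 60 cluster 4 cells, and 62 genes were called in each fit that left out a label. Wif1 stood at 8.33, 9.01, 9.07 and 10.46 log2 CPM against 0.15, -2.68, -2.19 and 2.40 (10.25 ± 0.99), and Kera, at 9.52 ± 0.73 higher, was equally distant. Chad was 7.17 ± 0.50 higher, Cilp2 6.17 ± 0.80, Fmod 5.08 ± 0.56 and Tnmd 4.24 ± 0.34. Egfl6 had 1 count in cluster 4, a ratio of 6.63e+03 (95% counting interval 1.19e+03 to 2.62e+05). Cartilage genes were called higher in 8 of 18 tested, the markers Chad and Cilp2 among them, with a median of 4.73. Matn4, a matrilin, was 10.96 ± 0.88 higher and Col11a2 8.87 ± 0.87 higher, while Col2a1, at 8.95 ± 1.63, lost its call without any of the 4 labels (adjusted p from 0.056 to 0.48). Thbs4 was at 13.58, 12.67, 12.85 and 13.43 against 12.35, 11.59, 11.33 and 13.43, level in PdgfrbGFP and not called (0.97 ± 0.27, adjusted p = 0.2). Met, the receptor for hepatocyte growth factor, Phyhip, and Gpha2, a glycoprotein hormone subunit, held 3836, 4517 and 3380 counts against 1, 1 and 3. Their ratios of CPM were 1.84e+03 (95% counting interval 330 to 7.26e+04), 2.16e+03 (388 to 8.55e+04) and 540 (185 to 2.62e+03). All 3 calls were lost without Acta2GFP, the pool or PdgfrbGFP (adjusted p from 0.051 to 0.58).

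Cluster 4 was higher in genes of type III collagen and in some of those of the general fibroblast profile. Postn stood at 6.44, 5.07, 6.78 and 3.38 log2 CPM in cluster 2 against 12.20, 11.68, 11.88 and 11.66, a similar level in each label of cluster 4 (-6.41 ± 0.56, adjusted p = 0.00082). F2rl1, a protease-activated receptor, was 8.98 ± 0.88 log2 units lower and Fhl2, a LIM domain cofactor, 6.43 ± 0.90. Col3a1, Col14a1 and Lum were 2.77 ± 0.30, 4.82 ± 0.44 and 3.13 ± 0.43 lower. Pdgfra was 3.50 ± 0.56 lower (adjusted p = 0.018, and 0.056 to 0.059 without C57BL6 or PdgfrbGFP). Sult5a1 and Ifi203, an interferon-induced gene, were 6.74 and 6.30 lower, with calls lost without C57BL6 or PdgfrbGFP for the former (adjusted p = 0.18 and 0.053) and without the pool for the latter (adjusted p = 0.09). Within soleus, 59 of the 66 higher and 52 of the 52 lower genes kept their direction in both labels. These cells were part of the sums that gave the calls, and all 118 genes already differed the same way under every label. In the pool, 45 of the 46 cluster 4 cells came from soleus. The soleus cells of PdgfrbGFP were 3 of cluster 4 and 7 of cluster 2, so the counts are no independent check. In that label 0 counts in both clusters, as for Met, read as -1.08 log2 units. A gene with equal low counts there would thus score as lower.

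Inside cluster 2, cells with and without Wif1 differed in other genes. In C57BL6, Wif1 was detected in 43 of 140 cells. Of these, 33 also held Kera, 29 Igfbp5, 25 Pcolce2 and 15 Egfl6, against 49, 19, 15 and 12 of the 97 cells without Wif1. Chodl went the other way, with 7 of 43 against 57 of 97. In PdgfrbGFP, 51 of 74 cells held Wif1, and of these 44 held Kera, 37 Igfbp5, 39 Pcolce2 and 8 Chodl, against 10, 2, 3 and 14 of 23. The same split thus appeared in both labels with the most cells. Col22a1 was detected in 11 of the 151 cells without Wif1 and in 0 of the 118 with it, which allows a share of up to 2.54%. Cells with Wif1 were also deeper, with a median of 329970 against 257775 counts in C57BL6 and 236940 against 147423 in PdgfrbGFP, and the part of depth was not tested. In Acta2GFP, cells with Wif1 were shallower, at 128258 against 170027 counts, and 1 of 5 held Chodl against 5 of 7 without Wif1. In Cspg4dsRED, Chodl was detected in 1 of 8 cells with and 0 of 8 without Wif1.

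Over single cells, the genes that followed Wif1 most closely in both labels were Ccdc3, a secreted protein (Spearman correlation 0.48 over 140 cells of C57BL6 and 0.65 over 74 cells of PdgfrbGFP), Igfbp5 (0.42 and 0.63) and Chrdl1 (0.40 and 0.49), of 3298 genes compared. Sparcl1, a matricellular protein (-0.45 and -0.57), Chodl (-0.33 and -0.55) and Mgp, matrix Gla protein (-0.24 and -0.53), ran opposite. These values share libraries and depth and are descriptions. Igfbp5, Chrdl1 and Chodl were also among the genes described against cluster 9 above.

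The muscle of origin was known for 27 cells of the pool and 25 cells of PdgfrbGFP in cluster 2, and did not enter the rule that set the cluster. Of 9994 genes, 3 were called between soleus and gastrocnemius (0.0300%), all lower in soleus, with a median log2 fold change of -0.34 over all genes. Igfbp5 stood at 31.56 CPM in the soleus cells of the pool against 846.7 in gastrocnemius, and at 10.3 against 1823 CPM in PdgfrbGFP (log2 fold change -6.07 ± 0.67, adjusted p = 0.003). In the other fibroblasts of the same labels it stood at 439.6 against 350.7 CPM and at 238.2 against 886.6 CPM. Spon2, a secreted spondin, stood at 0.3757 against 13.92 CPM and at 4.119 against 1031 CPM (-7.24 ± 0.87, adjusted p = 0.0051), and at 45.14 against 15.68 and 151 against 194.9 CPM in the other fibroblasts. Both genes were thus lower in soleus in each label in cluster 2, and went different ways in the 2 labels of the other fibroblasts. Hspa1a, a heat shock chaperone that responds to handling, stood at 3.006 against 335.8 CPM and at 5.149 against 631.8 CPM (-6.93 ± 0.71, adjusted p = 0.0025). It was lower in soleus in the other fibroblasts as well, at 70.74 against 326.9 and 37.61 against 594.7 CPM, and an antisense gene overlaps 19% of it. Without the strain block 0 genes were called by edgeR and 702 had an unadjusted p under 0.05, and DESeq2 with the block called 186. The soleus sums rest on 8 and 7 cells, and in the pool muscle and plate cannot be told apart, while the PdgfrbGFP cells of both muscles shared a plate.

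No marker was called between the muscles. Wif1 stood at 182.6 CPM in soleus against 675.1 CPM in gastrocnemius in the pool, and at 8.238 against 1693 CPM in PdgfrbGFP (-4.61 ± 1.16, adjusted p = 0.42). Kera stood at 616.9 against 1649 CPM and at 2.06 against 2960 CPM (-5.19 ± 1.74, adjusted p = 0.93). Egfl6 stood at 61.99 against 249.7 CPM and at 1.03 against 280.3 CPM (-4.41 ± 1.34, adjusted p = 0.74). All 3 were lower in soleus in each label, with the lowest values in PdgfrbGFP. Fmod, at 9552 against 9729 and 2.364e+04 against 2.261e+04 CPM, and Chad, at 3816 against 4011 and 5636 against 5736 CPM, differed by less than 0.2 log2 units. Tnmd was 0.48 ± 0.27 and Cilp2 -0.71 ± 0.36 log2 units from gastrocnemius, neither called. By cells, Wif1 was detected in 8 of 19 gastrocnemius and 3 of 8 soleus cells of the pool, and in 13 of 18 and 0 of 7 cells of PdgfrbGFP.

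Further genes, chosen after their values were seen where they are Dkk2, Reln and Postn, lay at or near 0 in 1 muscle or differed the same way in both labels. Fgf9, a fibroblast growth factor, had 0 counts in soleus and 885 in gastrocnemius cells of cluster 2, at least 122-fold lower with a floor of 3 counts over the group (adjusted p = 0.46). Bmp3 had 1 and 1247 counts, a ratio of 515 (95% counting interval 92.3 to 2.04e+04, adjusted p = 0.26). Lins1 went the other way, with 278 counts in soleus and 0 in gastrocnemius, at least 224-fold higher (adjusted p = 0.46). Dkk2 was at 0.3757 against 122.7 CPM in the pool and at 0 counts in soleus against 628 in PdgfrbGFP, and it was lower in soleus in the other fibroblasts as well, at 5.448 against 219.5 and 17.28 against 161 CPM. Reln stood at 7.89 against 0.9598 CPM and 29.86 against 0.3937 CPM, and Postn at 329.9 against 13.12 and 7.208 against 1.575 CPM, and both were also higher in soleus in the other fibroblasts of each label. The other fibroblasts differ in clusters between the muscles, with 45 cluster 4 and 8 cluster 9 cells of 168 in soleus of the pool against 1 and 1 of 206 in gastrocnemius. In PdgfrbGFP they held 3 and 9 of 102 against 0 and 1 of 113. In the pool's soleus, cluster 4 held 119222 of the 141629 Postn counts and cluster 9 held 2290 of the 2495 Reln counts.

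**Figure D4:**
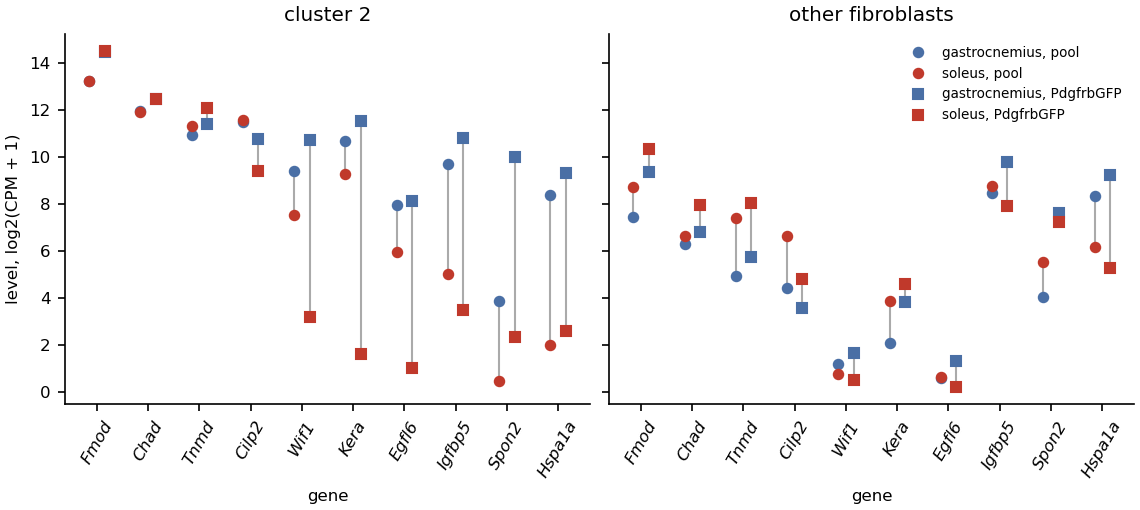
Level, as log2(CPM + 1), of 10 genes in gastrocnemius (blue) and soleus (red) in cluster 2 (left) and in the other fibroblasts (right), for the pool (circles) and PdgfrbGFP (squares), with grey lines joining the muscles of a label. In cluster 2, Fmod and Chad lie together, while Igfbp5, Spon2 and Hspa1a lie lower in soleus under both labels and Wif1 and Kera lie lowest in soleus cells of PdgfrbGFP.

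Cluster 2 made up 17.18% of all fibroblasts (exact 95% binomial interval 15.34% to 19.14%), but its share differed widely between strain labels. It was 38.46% in C57BL6 (33.44% to 43.67%), 14.95% in Cspg4dsRED (8.795% to 23.14%), 12.48% in PdgfrbGFP (9.927% to 15.41%), 11.88% in Acta2GFP (6.292% to 19.83%) and 6.733% in the pool (4.484% to 9.645%). The interval of C57BL6, the label sorted by antibody, overlapped none of the others, while those of Cspg4dsRED, PdgfrbGFP and Acta2GFP overlapped each other. Gate, plate, genotype and, for Acta2GFP, the added elastase cannot be told apart in these shares. By muscle, the share was 8.444% in gastrocnemius and 4.545% in soleus of the pool, and 13.74% and 6.422% in PdgfrbGFP, with overlapping intervals. Among the cells of clusters 2 and 9 alone, cluster 2 took 19 of 20 gastrocnemius cells of the pool and 18 of 19 of PdgfrbGFP, against 8 of 16 and 7 of 16 soleus cells. These shares are 95% and 94.74% in gastrocnemius against 50% and 43.75% in soleus, lower in soleus in both labels. The intervals were 75.13% to 99.87% against 24.65% to 75.35% in the pool, which touch, and 73.97% to 99.87% against 19.75% to 70.12% in PdgfrbGFP, which do not. Cells of a label are not replicates, so no test over labels was made. Acta2GFP stood apart from the other labels, with 34.29% (19.13% to 52.21%).

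**Figure D5:**
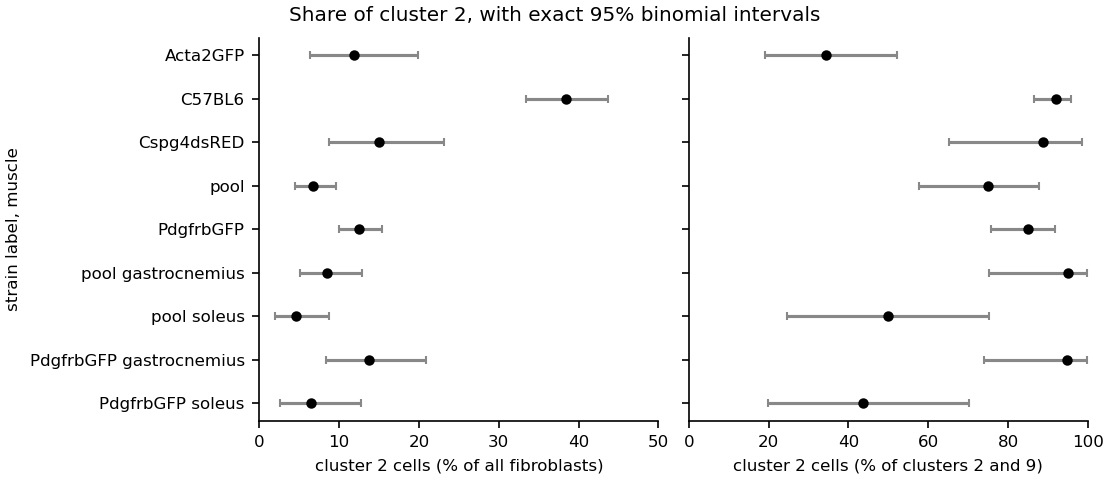
Percent of cluster 2 cells among all fibroblasts (left) and among the cells of clusters 2 and 9 (right), by strain label and, for the pool and PdgfrbGFP, by muscle. Points are shares and bars exact 95% binomial intervals, which cover counting error only. C57BL6 stands highest on the left at 38.46%, and on the right soleus lies at 50% and 43.75% against 95% and 94.74% in gastrocnemius.

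Fewer genes were detected per cluster 2 cell at equal depth. Thinned to 50000 counts, the mean number of genes per cell was 3697, 2314, 1798, 3283 and 2999 in Acta2GFP, C57BL6, Cspg4dsRED, the pool and PdgfrbGFP, against 4155, 2877, 1868, 3680 and 3300 in the other fibroblasts. It was lower in 5 of 5 labels, with a mean difference of -357.7 ± 187.1 genes (SD, exact sign-flip permutation test on both sides, p = 0.0625, the smallest p that 5 labels allow). It was also lower on 7 of 7 plates, of which some share a strain label, so that they are not independent. Unthinned, the difference was -500.9 genes. Thinning left out 1 cluster 2 cell and 3 other cells with fewer counts. The counts per spike-in count, a measure of RNA content, were lower in 4 of 5 labels. The log2 difference was -0.5637, -0.5666, 0.2309, -0.1666 and -0.01099, with a mean of -0.2154 ± 0.3493 (exact permutation p = 0.3125, where 5 labels allow no p below 0.0625). Without Cspg4dsRED the difference was -0.327, lower in 4 of 4 labels. Mitochondrial genes took a median of 1.591% of counts in cluster 2 cells and 1.226% in the others.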

How the data were processed

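Single-cell libraries were made with Smart-seq2 and external spike-in RNA and sequenced as single 50-base reads. The authors aligned reads with TopHat2 to GRCm38 (mm10), removed what they call doublets with samtools, read here as duplicate reads, and counted reads per gene with featureCounts of the Subread package. The deposited values are raw counts per gene and cell. The annotation release and the strand setting are not given in the sources used here. The authors dropped cells with few counts, or with few or very many genes, and clustered the rest with pagoda2. No doublet caller was run here, and 1 column without a label was not used. The 92 spike-ins took 1.306% of counts and stayed out of library sizes.

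Counts were summed per strain label for classes with 3 or more cells and tested with the quasi-likelihood test of edgeR 4.0.16 (R 4.3.3), with TMM scaling, its filter on low counts, the strain label as a block and Benjamini-Hochberg adjustment over all tested genes. Levels are log2 CPM with a prior count of 2. A gene was called at an adjusted p under 0.05. The block follows from the labels, since sums under the same label come from the same cells' source. Deviations of sums under the same label correlated with r from 0.14 to 0.28 against the other fibroblasts, from 0.01 to 0.07 against cluster 9 and from -0.01 to 0.06 against cluster 4. Alternatives were DESeq2 1.42.0, its size factors, no filter, no block, a block by plate, equal numbers of cells, each other cluster weighted alike, other cell filters and leaving out each label.

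The members and gene lists were chosen with earlier results of these data known. Named genes were the markers, the called genes with the largest changes at 5 log2 CPM or more in the higher class (10 in each direction against the other fibroblasts, 8 against cluster 9, with Col22a1, Chodl, Rflnb and Reln added, 5 against cluster 4 and 5 between muscles), and up to 4 called and 2 uncalled members of each list. Scx, Thbs4, Comp, Sox9, Col1a1, Col1a2, Col3a1, Lum, Dcn, Prelp and Pi16 were named against the other fibroblasts after their values were seen. So were Scx, Mkx, Igfbp5, Chrdl1, Bmp3, Dkk2, Col1a1, Col1a2, Dcn, Lox, Pcolce2, Spp1 and Fn1 against cluster 9, and Thbs4, Col2a1, Col11a2, Col3a1, Col14a1, Pdgfra and Lum against cluster 4. Gene positions and overlaps came from GENCODE M21, which matched 46005 of 46517 genes, and promoters from RefSeq.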

Additional observations from a re-analysis of the deposited data

Results flagged for a closer look

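In 12 of 105 groups of 5 strain labels, the lowest or highest label lay beyond Dixon's 95% critical value, which chance does in about 1 in 20 groups. In 8 of the 12 the label was Cspg4dsRED, the label with the fewest counts in cluster 2. Levels are log2 CPM in cluster 2, and -4.68 stands for no counts. In Cspg4dsRED, Matn3 and Lama3 had no counts (-4.68) while the other labels lay at 6.46 to 8.82 and at 4.47 to 5.91. Nova1, Col4a5 and Emilin2 also stood at -4.68 there, against -0.84 to 0.20, -1.08 to 0.20 and 0.91 to 1.97. Col5a3 stood at 1.86 against 5.06 to 6.31 and Ccl11 at 1.86 against 3.67 to 4.39, whereas Ier3 stood higher, at 9.58 against 8.53 to 8.72. In Acta2GFP, Crtac1 stood at 2.24 against 5.85 to 6.71, and Sult5a1 had no counts (-4.68) against -0.40 to 1.10. In C57BL6, Osr2 stood at -0.84 against 0.56 to 1.08. The share of fibroblasts in cluster 2 was 38.5% in C57BL6 against 6.73% to 14.9% in the other labels.

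Between soleus and gastrocnemius, Kera and Chad moved one way in cluster 2 and the other way in the remaining fibroblasts of both labels, and this difference was not tested. Kera was at -1.42 and -10.17 log2 units (soleus minus gastrocnemius) in cluster 2 against 0.82 or more in the other fibroblasts. Chad was at -0.07 and -0.03 against 0.35 or more, so its change in cluster 2 was close to 0. The other fibroblasts of soleus held more cluster 9 cells, 8 of 168 against 1 of 206 in the pool and 9 of 102 against 1 of 113 in PdgfrbGFP. In soleus, cluster 9 held 1111 of 1162 and 386 of 420 of their Kera counts, and 7444 of 8596 and 4177 of 4539 of their Chad counts.

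Mural cells entered no fit between clusters. Fmod was at the detection level in 42.8% of 187 mural cells against 32.9% of the other fibroblasts, and Tnmd in 17.1% against 7.48%. Wif1, Kera and Egfl6 were detected in 0 of the 187 mural cells, which allows a share of up to 1.6%.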

How the results depend on the processing

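Counts of called genes moved with the tool and with the strain labels used. Against the other fibroblasts the 735 calls became 2098 with DESeq2, 276 with equal numbers of cells and 274 to 997 without 1 strain label. Against cluster 9 the 109 calls became 857 with DESeq2, 345 without the filter on low counts, 37 with classes of 1 or more cells, 35 to 50 without 1 strain label and 11 in soleus cells only, the last chosen after seeing the data. Against cluster 4 the 118 calls became 927 with DESeq2, 327 without the filter and 74 to 132 without 1 strain label. Between muscles the 3 calls became 186 with DESeq2 and 53 without the filter. Fits without 1 label were not run there, since a single label leaves no residual degrees of freedom.

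The pairing of sums by strain label also moved counts. With the block by plate in place of strain label 1189 genes were called against the other fibroblasts, and without a block 638. Without the block 133 were called against cluster 9, 181 against cluster 4 and 0 between muscles, where 702 genes had an unadjusted p under 0.05. The cause of these shifts was not tested.

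Of 2014 values of named genes under alternatives, 1659 kept their direction and side of the threshold, 288 lost a call, 24 gained one, 39 moved with each other cluster weighted alike and 4 reversed. In soleus cells only, Kera and Mkx stood at -1.95 and -0.05 against cluster 9. Fmod between muscles stood at 0.05 with DESeq2 and with its size factors. The difference in genes per cell was -349 over plates (exact permutation p = 0.01562, over plates that partly share a strain label), and -430 to -306 without 1 label. Soleus sums and Cspg4dsRED hold the fewest counts and limit what could be called.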
